A study of Homo sapiens with 6 samples.

Results

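The transcripts described here are those of 34 genes of glucose uptake, glycolysis, lactate formation and export, and the entry of pyruvate into mitochondria. They were chosen by name as the members of these pathways, with earlier results of these data known. All 34 were present among the 56303 genes of the count table. The RNA-seq compared 786-O cells, a line derived from a clear cell renal cell carcinoma (ccRCC), after an siRNA against NFE2L3 (siNFE2L3, 3 libraries, labelled 48 h) with 786-O cells after a control siRNA (siControl, 3 libraries, labelled wild type and 0 h). NFE2L3 is a transcription factor of the cap'n'collar family, and the question was which transcripts change when it is reduced. Cells were transfected in culture, and the sources used here do not name the siRNA of each library. Since the siRNA and the labelled time differed together, their contributions cannot be told apart. The genotype entries of siNFE2L3 replicates 2 and 3 name NFE2L4 and NFE2L5, whereas their titles and source names give NFE2L3, under which they are used here. The labels do not say that the 3 libraries of a group came from separate cultures, so the p-values measure only how far these libraries scatter, and that scatter may be technical.

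In glycolysis, glucose is taken up by facilitative carriers, phosphorylated, split and oxidised to pyruvate in the cytosol. Pyruvate is then either reduced to lactate, which leaves the cell through monocarboxylate carriers, or carried into mitochondria and converted to acetyl-CoA by the pyruvate dehydrogenase complex, which kinases switch off and phosphatases switch on. Most ccRCC cells, 786-O included, lack the VHL protein, so that hypoxia-inducible factors (HIF) stay active in oxygen, and many glycolytic genes are known HIF targets. Which of these factors were active in the cells used here was not tested.

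The libraries held 51828446 to 56806368 counts in the siNFE2L3 group and 53051297 to 57391929 counts in the siControl group. NFE2L3 itself had 19.5, 19.1 and 20.8 CPM in siNFE2L3 libraries, against 116, 113 and 115 CPM in siControl libraries, a log2 fold change of -2.54 (SE 0.048, edgeR adjusted p = 3.98e-22), which left 17.2% of the siControl level. Levels are given in CPM, read counts scaled to a fixed normalised library size, and, where genes are compared with each other, in RPKM, which divides CPM by the exon length in kilobases. The labelled cell type was checked against renal tubule markers: PAX8 had 217 ± 8.02 CPM in siNFE2L3 cells and 241 ± 3.57 CPM in siControl cells, and KRT8 had 385 ± 10.6 CPM in siNFE2L3 cells and 480.0 ± 22.0 CPM in siControl cells (SD, n = 3 each). PAX2 and KRT18 were also present, whereas the mature proximal tubule markers LRP2 and CUBN were at 0 reads and at or below 0.603 CPM. The endothelial marker CDH5 had 0 reads, and the leukocyte marker PTPRC reached at most 0.358 CPM in any library. Of the tubule markers, PAX8, KRT8, KRT18 and CDH2 were themselves lower in siNFE2L3 cells, CDH2 at 76.4% and KRT8 at 80.2% of the control. Of the 4 leukocyte markers only CD68, a lysosomal protein that many cells make, was above 1 CPM, and it was lower too (118 ± 3.41 CPM in siNFE2L3 cells and 132 ± 11.3 CPM in siControl cells). The part of these shifts in the results on metabolism was not tested.

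Of the 34 genes, 33 passed the filter on low counts and were tested. At an adjusted p under 0.05 (edgeR quasi-likelihood test, Benjamini-Hochberg over 19916 genes), 12 of the 33 were lower in siNFE2L3 cells, against a background of 14.0% of all tested genes, and 5 were higher, against a background of 12.7%. The list was on average far more abundant than the genome, with a median of 121 CPM beside 8.73 CPM over all tested genes, and abundant genes pass a test more easily. Among the 11633 genes with a mean of 5 CPM or more, 21.2% were lower and 17.5% higher, and 32 of the 33 genes, with all 17 calls, fell in that range. The median log2 fold change of the 33 genes was -0.077, beside -0.00066 over all tested genes, and the median size of the change was 0.12 beside 0.16. The medians over all tested genes were not matched for abundance. No gene of the 34 passed an unadjusted p of 0.05 with a fold of 2, which 1.10% of all tested genes did. Beside so low a background, a count of 0 does not set the list apart. This count was 0 with edgeR, DESeq2 and limma-voom alike, while 20 of the 33 had an unadjusted edgeR p under 0.05. Changes were small, the largest being the 1.53-fold rise of PFKFB4. The libraries of both groups did not overlap for 21 of the 33 genes, 13 of them lower and 8 higher, against a background of 39.5%. That background is over all tested genes and was not matched for abundance either.

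**Figure D1:**
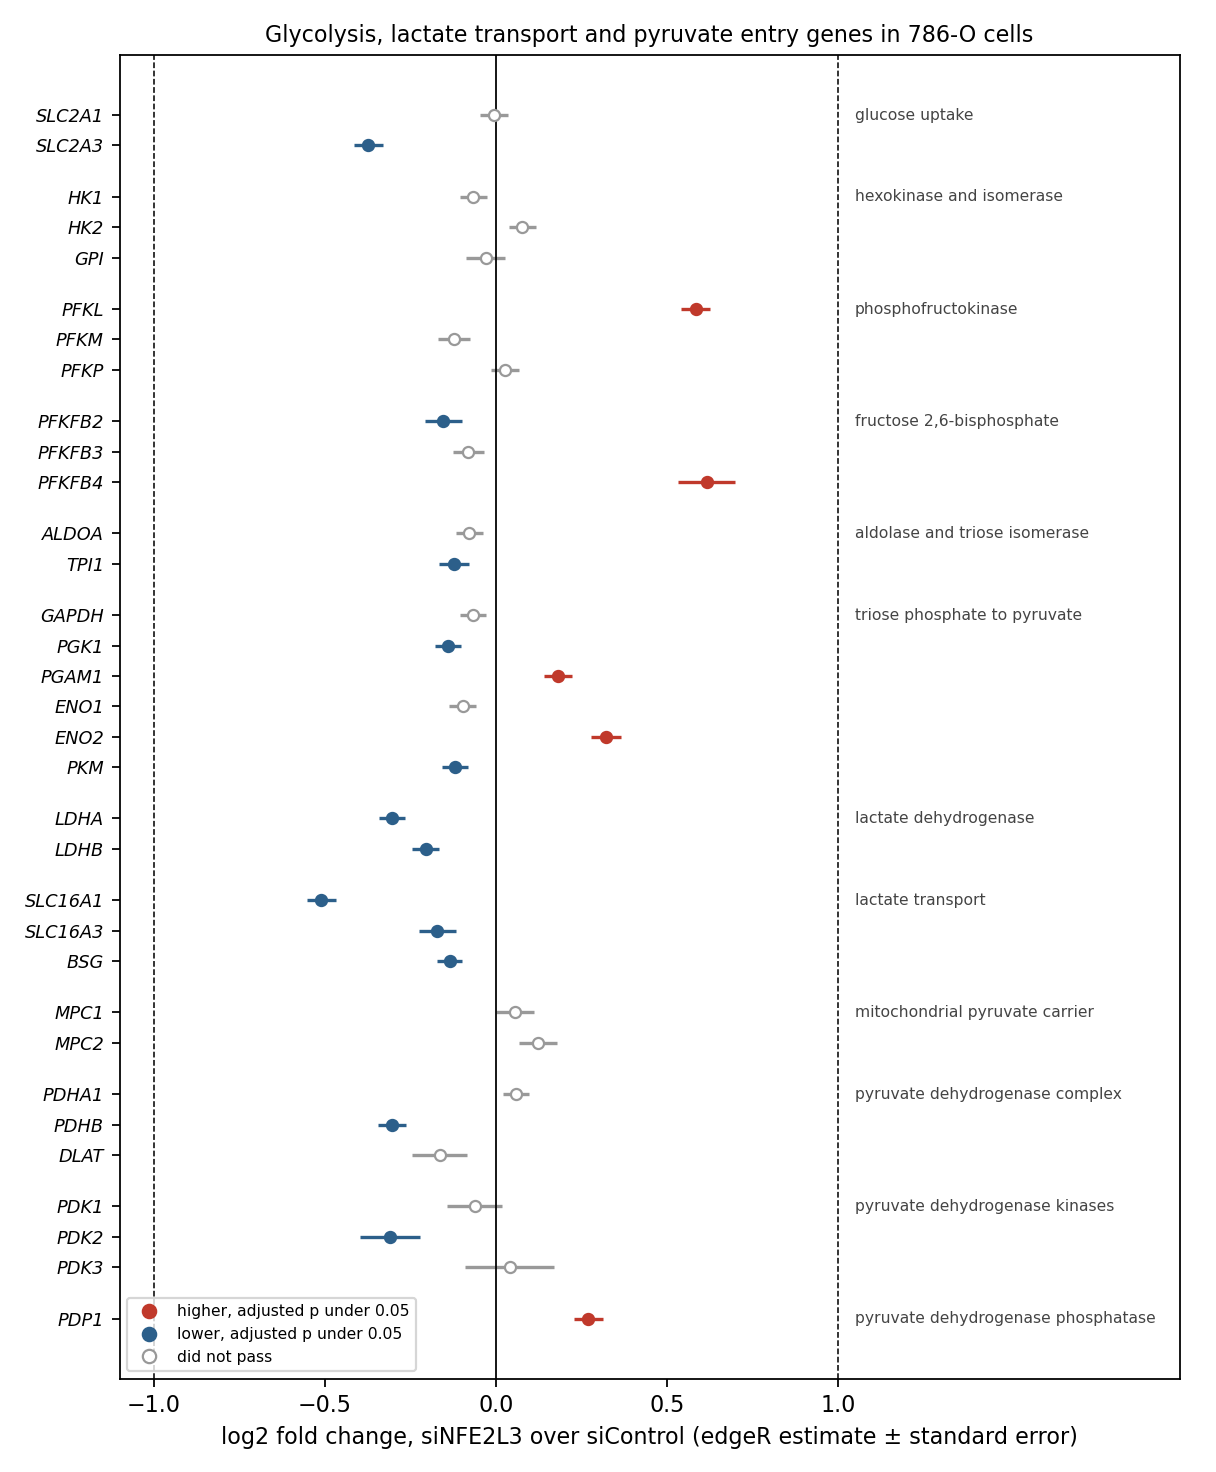
Log2 fold change of siNFE2L3 over siControl for the 33 tested genes, grouped by step of the pathway (points are edgeR estimates, bars are standard errors, dashed lines mark a 2-fold change). The lactate genes lie left of 0, PFKL and PFKFB4 lie farthest to the right, and no gene reaches a dashed line.

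At the end of the fermentative branch, the abundant genes were lower. Both lactate dehydrogenase transcripts, both lactate carriers and the carriers' chaperone passed the test as lower in siNFE2L3 cells, 5 of 5 listed genes, with SLC16A3 the least certain. The background was 14.0% lower among all tested genes and 21.2% among genes at 5 CPM or more, the range of all 5. The rare paralogues SLC16A7, at 0.832 ± 0.142 CPM in siNFE2L3 cells and 0.852 ± 0.177 CPM in siControl cells, and LDHC, at 0.366 ± 0.0321 CPM in siNFE2L3 cells and 0.361 ± 0.0315 CPM in siControl cells, were not among the 34 genes and did not pass the test (edgeR adjusted p = 0.95 and 0.972). SLC16A1 encodes the monocarboxylate carrier MCT1, which moves lactate, pyruvate and protons across the plasma membrane in either direction, and lies at chr1:112911847-112957013 (GRCh38, minus strand). It had 110.5, 109 and 114 CPM in siNFE2L3 libraries, against 157, 153 and 166 CPM in siControl libraries. Every siNFE2L3 library was below every siControl library, and the mean stood at 70.2% of the control, the largest fall among the 34 genes, with a log2 fold change of -0.51 (SE 0.042, edgeR adjusted p = 1.44e-09). In bulk libraries such as these, less RNA per cell and fewer cells that carry it cannot be told apart. The gene shares 175 exon bases with SLC16A1-AS1 on the opposite strand, which averaged 22.0 CPM in siNFE2L3 cells and 20.1 CPM in siControl cells and did not pass the test (edgeR adjusted p = 0.127).

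SLC16A3 encodes MCT4, the low-affinity carrier of cells that export much lactate. It had 95.6, 94.9 and 91.9 CPM in siNFE2L3 libraries, against 94.5, 117 and 106 CPM in siControl libraries. The groups overlapped, because siControl replicate 1 was below siNFE2L3 replicates 1 and 2, and the 3 siControl libraries were spread widely. The test gave a log2 fold change of -0.17 (SE 0.054, edgeR adjusted p = 0.0204). Without siControl replicate 2 the log2 fold change was -0.095 and the adjusted p was 0.19, and without siNFE2L3 replicate 3 the adjusted p was 0.101. SLC16A3 shares 482 exon bases with CSNK1D on the opposite strand, which was of like abundance, at 84.9 CPM in siNFE2L3 cells and 78.8 CPM in siControl cells. BSG, the chaperone basigin that brings both carriers to the plasma membrane, had 369, 361 and 362 CPM in siNFE2L3 libraries, against 396, 397 and 406 CPM in siControl libraries. These groups were well apart relative to their narrow spread, and BSG fell to 91.1% of the control with a log2 fold change of -0.13 (SE 0.037, edgeR adjusted p = 0.00783).

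LDHA, the subunit that dominates in glycolytic tissues and favours the reduction of pyruvate, lies at chr11:18394388-18408425 on the plus strand. Its level was 688, 687 and 666 CPM in siNFE2L3 libraries, against 815, 831 and 872 CPM in siControl libraries. All 3 siNFE2L3 libraries were below all 3 siControl libraries, at 81.1% of the control mean, with a log2 fold change of -0.30 (SE 0.038, edgeR adjusted p = 1.37e-06). LDHB, the heart-type subunit, had 298, 323 and 312 CPM in siNFE2L3 libraries, against 356, 354 and 366 CPM in siControl libraries. It fell to 86.8% of the control without overlap (log2 fold change -0.20, SE 0.040, edgeR adjusted p = 0.000326). The share of LDHA in their summed RPKM was 51.3% ± 1.14 in siNFE2L3 cells and 52.9% ± 0.513 in siControl cells (SD, n = 3 each), and those shares overlapped. The summed level of LDHA and LDHB was 214 ± 4.37 RPKM in siNFE2L3 cells and 255 ± 6.74 RPKM in siControl cells (SD, n = 3 each), or 83.8% of the control. For SLC16A1, SLC16A3 and BSG together the sum was 126 ± 1.11 RPKM in siNFE2L3 cells and 146 ± 2.79 RPKM in siControl cells (SD, n = 3 each), or 86.6%. Within the carrier pair the share of SLC16A1 was 66.7% ± 0.955 in siNFE2L3 cells and 71.7% ± 2.54 in siControl cells, with no overlap between the groups.

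**Figure D2:**
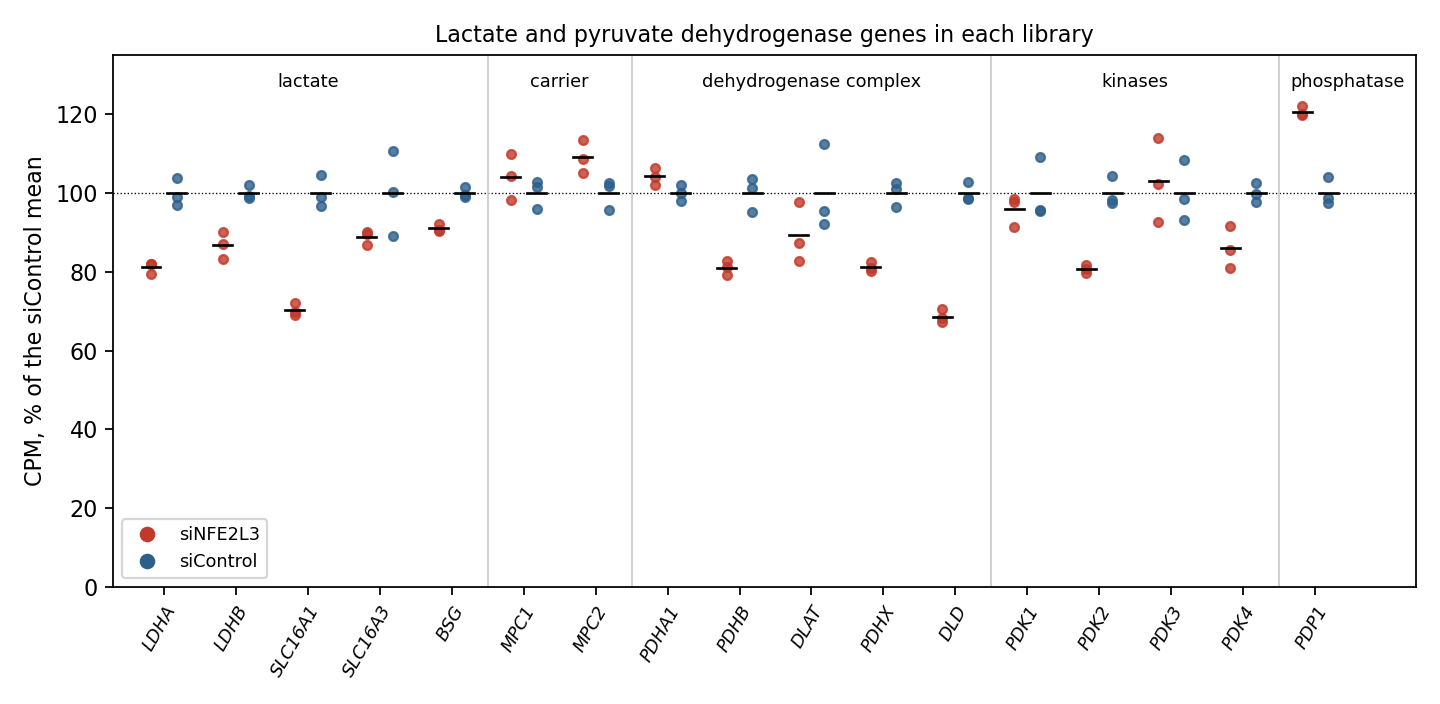
CPM of each library as a percentage of the siControl mean of the same gene, for the lactate genes and for the carrier, complex, kinases and phosphatase of the pyruvate dehydrogenase step (points are libraries, short lines are group means, 3 libraries per group). SLC16A1 at 70.2% and DLD at 68.6% lie lowest, PDP1 at 121% lies highest, and the SLC16A3 libraries of both groups overlap.

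At the mitochondrial entry of pyruvate the genes did not move as a block. MPC1 and MPC2, the subunits of the mitochondrial pyruvate carrier, did not pass the adjusted test: MPC1 had 30.4 ± 1.71 CPM in siNFE2L3 cells and 29.2 ± 1.07 CPM in siControl cells and MPC2 had 27.9 ± 1.09 CPM in siNFE2L3 cells and 25.6 ± 0.952 CPM in siControl cells (SD, n = 3 each). The unadjusted 95% interval of the log2 fold change was -0.051 to 0.17 for MPC1 and 0.016 to 0.23 for MPC2. MPC2 shares 575 of its 2552 exon bases with DCAF6 on the opposite strand, which was several times more abundant and was itself higher (164 CPM in siNFE2L3 cells against 148 CPM in siControl cells, edgeR adjusted p = 0.00711).

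The pyruvate dehydrogenase complex joins an E1 enzyme, made of alpha and beta subunits, with the E2 acetyltransferase, the E3 dehydrogenase and an E3-binding protein. PDHB, the E1 beta subunit, at chr3:58427630-58433857 on the minus strand, had 191, 188 and 183 CPM in siNFE2L3 libraries, against 219.5, 234 and 239 CPM in siControl libraries. The groups did not overlap, and PDHB fell to 81.0% of the control with a log2 fold change of -0.30 (SE 0.041, edgeR adjusted p = 3.54e-06). Its partner PDHA1, the E1 alpha subunit on the X chromosome, had 212, 221 and 216 CPM in siNFE2L3 libraries, against 208, 204 and 212 CPM in siControl libraries. Each siNFE2L3 value of PDHA1 was above each siControl value, but by little, and it did not pass the test (log2 fold change 0.059, SE 0.039, edgeR adjusted p = 0.289). The share of PDHB in the summed RPKM of the E1 pair was accordingly 45.1% ± 0.849 in siNFE2L3 cells and 51.4% ± 1.12 in siControl cells (SD, n = 3 each), without overlap. This pair was set side by side after the values had been seen. PDHB shares 360 exon bases with the antisense gene RP11-802O23.3, which had 3.34 CPM in siNFE2L3 cells and 4.62 CPM in siControl cells, a small number of reads beside PDHB. DLAT, the E2 acetyltransferase, had 13.2 ± 1.12 CPM in siNFE2L3 cells and 14.8 ± 1.60 CPM in siControl cells with overlapping libraries and did not pass (log2 fold change -0.16, SE 0.080, edgeR adjusted p = 0.137), though without siControl replicate 1 its adjusted p was 0.0456.

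Outside the 34 genes, DLD and PDHX, the remaining subunits of the complex, passed the test as lower. DLD, the E3 dihydrolipoamide dehydrogenase that other keto acid dehydrogenases share, had 152, 150.0 and 157 CPM in siNFE2L3 libraries, against 220.3, 219 and 229 CPM in siControl libraries, far apart relative to the spread. It stood at 68.6% of the control (log2 fold change -0.54, SE 0.040, edgeR adjusted p = 2.17e-10), a greater fold than that of any of the 34 genes that fell. PDHX, the E3-binding protein, had 62.2, 64.0 and 62.8 CPM in siNFE2L3 libraries, against 78.3, 74.8 and 79.4 CPM in siControl libraries and fell to 81.3% of the control (log2 fold change -0.30, SE 0.043, edgeR adjusted p = 9.16e-06).

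Pyruvate dehydrogenase kinases inactivate the complex by phosphorylating the E1 alpha subunit. PDK2, the most widely expressed of them across tissues, had 6.39, 6.30 and 6.23 CPM in siNFE2L3 libraries, against 7.62, 8.15 and 7.67 CPM in siControl libraries. It was low in every siNFE2L3 library, at 80.7% of the control, with a log2 fold change of -0.31 (SE 0.087, edgeR adjusted p = 0.00904). PDK2 shares 2113 of its 5481 exon bases with SAMD14 on the opposite strand, which had 0.890 CPM in siNFE2L3 cells and 1.15 CPM in siControl cells. PDK1, a HIF target, averaged 9.66 ± 0.401 CPM in siNFE2L3 cells and 10.1 ± 0.787 CPM in siControl cells, and PDK3 averaged 3.22 ± 0.331 CPM in siNFE2L3 cells and 3.13 ± 0.242 CPM in siControl cells (SD, n = 3 each). Neither PDK1 nor PDK3 passed the test, and the 95% interval of the log2 fold change was -0.22 to 0.10 for PDK1 and -0.21 to 0.29 for PDK3. PDK2 accounted for 38.5% ± 1.78 in siNFE2L3 cells and 43.7% ± 1.62 in siControl cells of the summed RPKM of these 3 kinases, without overlap. PDK4, the kinase induced by fasting, which is not among the 34 genes, had 18.1, 16.9 and 16.1 CPM in siNFE2L3 libraries, against 20.3, 19.7 and 19.4 CPM in siControl libraries and also fell (log2 fold change -0.22, SE 0.063, edgeR adjusted p = 0.0111). Per exon length PDK4 was the most abundant kinase, at 3.77 RPKM in siNFE2L3 cells and 4.39 RPKM in siControl cells. The other 3 summed to 2.99 RPKM in siNFE2L3 cells and 3.26 RPKM in siControl cells, a sum that leaves PDK4 out. PDP1, the calcium-stimulated phosphatase that reactivates the complex, moved the other way, with 98.4, 98.7 and 100.3 CPM in siNFE2L3 libraries, against 85.5, 80.1 and 81.1 CPM in siControl libraries. All siNFE2L3 libraries were above all siControl libraries, a rise to 121% of the control (log2 fold change 0.27, SE 0.042, edgeR adjusted p = 2.39e-05). PDP2, the other phosphatase, which is not among the 34 genes, had 15.8 ± 0.837 CPM in siNFE2L3 cells and 17.8 ± 0.857 CPM in siControl cells, with no overlap of the libraries, and did not pass the test (log2 fold change -0.17, SE 0.065, edgeR adjusted p = 0.0505). PDPR, the regulatory subunit of the phosphatase, had 18.1 ± 1.01 CPM in siNFE2L3 cells and 19.8 ± 0.279 CPM in siControl cells and did not pass either (log2 fold change -0.13, SE 0.061, edgeR adjusted p = 0.116).

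At the top of the pathway, the more abundant glucose carrier did not pass the test and the other was lower. SLC2A1 encodes GLUT1, the carrier of most tumour cells, and had 749, 687 and 716 CPM in siNFE2L3 libraries, against 739, 734 and 689 CPM in siControl libraries. The groups were interleaved, with a log2 fold change of -0.0065 (SE 0.041, edgeR adjusted p = 0.934) and a 95% interval of -0.087 to 0.074. SLC2A3, the high-affinity carrier GLUT3, had 54.0, 53.6 and 52.9 CPM in siNFE2L3 libraries, against 67.9, 69.8 and 70.0 CPM in siControl libraries. It fell to 77.2% of the control without overlap (log2 fold change -0.37, SE 0.043, edgeR adjusted p = 3.62e-07) and made up 5.63% ± 0.214 in siNFE2L3 cells and 7.15% ± 0.340 in siControl cells of the RPKM of the pair. SLC2A3 has 3 named copies in the table with 27.0% as many reads as the gene itself. Nearly all of these lay on SLC2A3P1, which had 1031, 1106 and 983 reads in siNFE2L3 libraries, against 782, 862 and 674 reads in siControl libraries. The copy was thus higher where the gene was lower (log2 fold change 0.45, edgeR adjusted p = 3.37e-05), and how reads that match both were split was not tested, so the size of the SLC2A3 change is uncertain. Named copies of the other genes, whose symbol is that of the gene followed by P and a number, held at most 0.413% as many reads as their gene. Related genes with names of another form, such as PGAM4 and SLC2A14, were not counted as copies.

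HK1, HK2 and GPI, the hexokinases and the isomerase among the 34 genes, did not pass the test, whereas HKDC1, a hexokinase outside the list of 34, was lower (log2 fold change -0.14, SE 0.042, edgeR adjusted p = 0.0143). HK1, the widely expressed hexokinase, had 231 ± 5.83 CPM in siNFE2L3 cells and 242 ± 5.68 CPM in siControl cells, and HK2, the insulin-responsive form raised in many tumours, had 124 ± 1.99 CPM in siNFE2L3 cells and 118 ± 0.765 CPM in siControl cells (SD, n = 3 each). The HK2 libraries did not overlap, with siNFE2L3 above siControl, but the change was small (log2 fold change 0.077, SE 0.039, edgeR adjusted p = 0.155). As HK1 leaned the other way (log2 fold change -0.065, SE 0.039, edgeR adjusted p = 0.235), the share of HK2 in the RPKM of the pair was 35.0% ± 0.484 in siNFE2L3 cells and 32.8% ± 0.390 in siControl cells, without overlap. GPI, which turns glucose 6-phosphate into fructose 6-phosphate, had 29.7 ± 1.04 CPM in siNFE2L3 cells and 30.3 ± 2.02 CPM in siControl cells (log2 fold change -0.030, SE 0.057, edgeR adjusted p = 0.756).

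The greatest rises of all 34 genes were those of PFKFB4, described below, and of PFKL. At the phosphofructokinase step, the main point of control of glycolysis, PFKL was the only subunit that passed the test. PFKL, the liver-type subunit, at chr21:44300051-44327376 on the plus strand, had 139.9, 133 and 142 CPM in siNFE2L3 libraries, against 95.2, 89.5 and 92.0 CPM in siControl libraries. The lowest siNFE2L3 library was well above the highest siControl library, and the mean was 149.9% of the control, with a log2 fold change of 0.58 (SE 0.042, edgeR adjusted p = 1.94e-10). PFKP, the platelet-type subunit, had 533 ± 2.81 CPM in siNFE2L3 cells and 523 ± 28.5 CPM in siControl cells and did not pass (log2 fold change 0.027, SE 0.041, edgeR adjusted p = 0.681). PFKM, the muscle-type subunit, had 46.2, 46.2 and 48.6 CPM in siNFE2L3 libraries, against 51.8, 51.7 and 50.1 CPM in siControl libraries. Its libraries did not overlap, but its adjusted p of 0.0501 lay just past the threshold (edgeR), and it was under 0.05 in 4 of the 15 alternative settings. PFKM shares 628 exon bases with SENP1 on the opposite strand, which had 31.8 CPM in siNFE2L3 cells and 34.8 CPM in siControl cells. PFKL made up 11.7% ± 0.419 in siNFE2L3 cells and 8.26% ± 0.611 in siControl cells of the phosphofructokinase RPKM (SD, n = 3 each), and PFKP, still the main form, made up 83.4% ± 0.519 in siNFE2L3 cells and 86.1% ± 0.918 in siControl cells. The sum of the 3 subunits was 132 ± 0.358 RPKM in siNFE2L3 cells and 125 ± 5.53 RPKM in siControl cells (SD, n = 3 each), or 105% of the control, without overlap.

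PFKFB enzymes make and break fructose 2,6-bisphosphate, the strongest activator of phosphofructokinase. PFKFB4, a HIF-responsive form of many tumours, at chr3:48517684-48562015 on the minus strand, had 11.3, 10.1 and 10.6 CPM in siNFE2L3 libraries, against 6.99, 7.30 and 6.57 CPM in siControl libraries. Again the groups lay far apart, at 153% of the control with a log2 fold change of 0.62 (SE 0.083, edgeR adjusted p = 3.23e-06). PFKFB4 shares 289 exon bases with UCN2 on the same strand, which was higher as well, at 4.54 CPM in siNFE2L3 cells and 3.56 CPM in siControl cells (edgeR adjusted p = 0.0248). PFKFB3, the form with the highest kinase activity and the main one here, had 65.9 ± 0.596 CPM in siNFE2L3 cells and 69.6 ± 3.68 CPM in siControl cells and did not pass (log2 fold change -0.081, SE 0.046, edgeR adjusted p = 0.21), though without siControl replicate 1 its adjusted p was 0.0437. PFKFB2, the heart-type form, had 22.7, 22.4 and 22.8 CPM in siNFE2L3 libraries, against 25.8, 24.9 and 24.9 CPM in siControl libraries. These libraries did not overlap and the test called it lower (log2 fold change -0.15, SE 0.054, edgeR adjusted p = 0.0382), but the call was lost whenever any single library was left out, with adjusted p-values of 0.0548 to 0.109. It shares 315 exon bases with YOD1 on the opposite strand, which was more abundant and changed by a like amount (log2 fold change -0.15, edgeR adjusted p = 0.0341). Among these forms the share of PFKFB4 was 10.9% ± 0.574 in siNFE2L3 cells and 6.99% ± 0.492 in siControl cells and that of PFKFB3 was 75.2% ± 0.629 in siNFE2L3 cells and 77.8% ± 1.28 in siControl cells, both without overlap. Their sum overlapped between the groups, at 16.0 ± 0.120 RPKM in siNFE2L3 cells and 16.3 ± 0.603 RPKM in siControl cells, or 98.0% of the control.

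**Figure D3:**
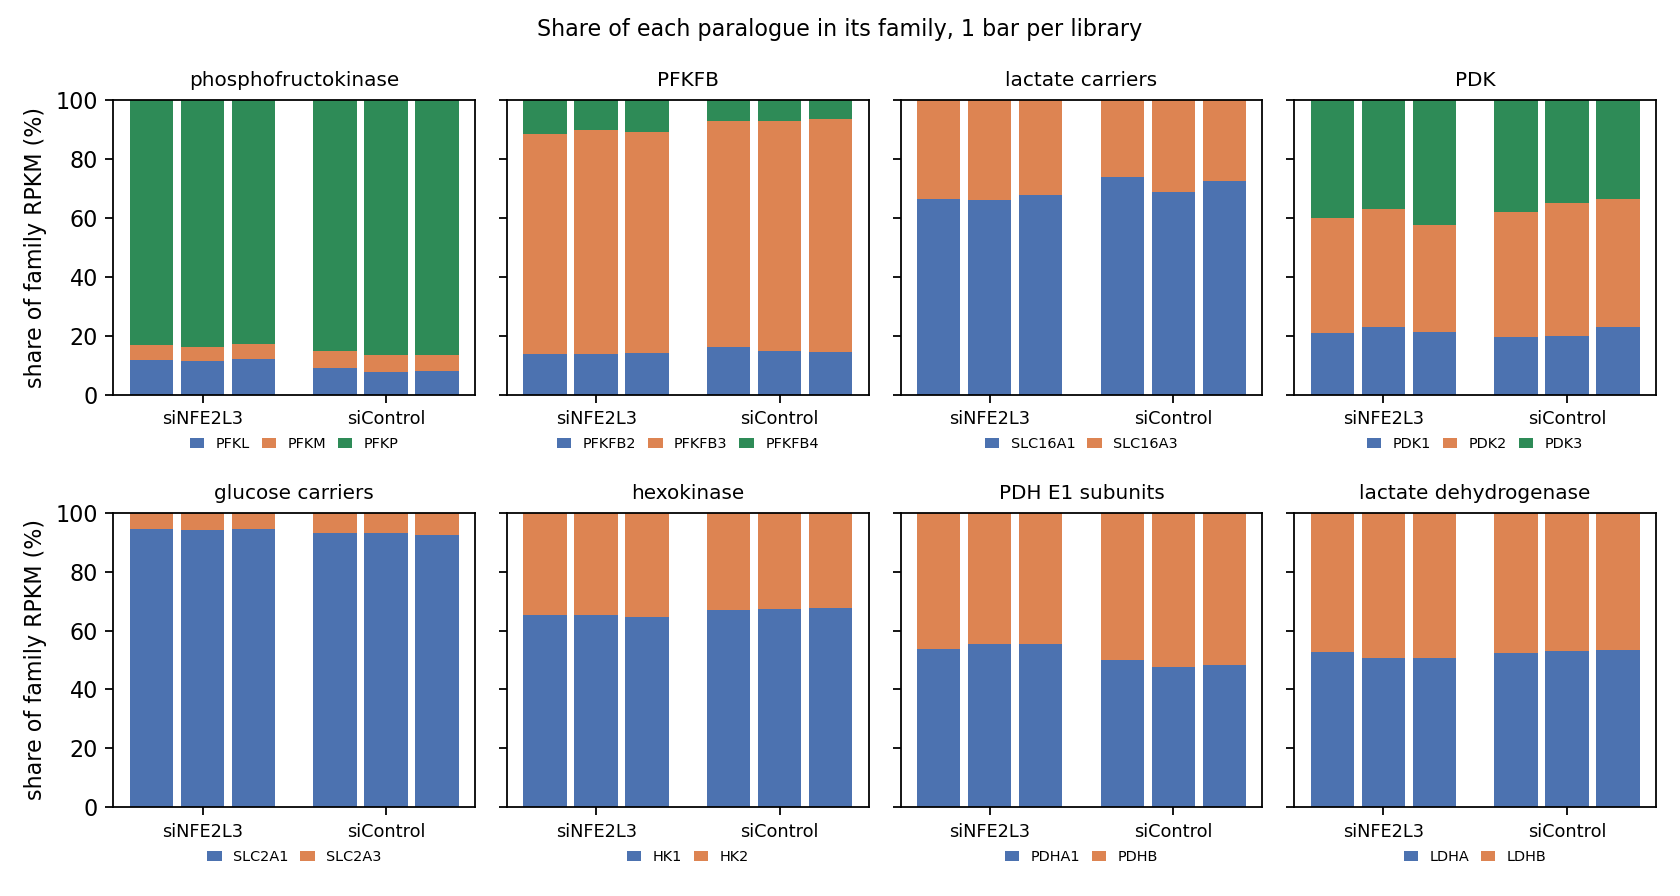
Share of each paralogue, or of each E1 subunit, in the summed RPKM of the listed genes of its family (1 stacked bar per library, siNFE2L3 libraries left of siControl libraries). Family members outside the gene list, such as HKDC1, ENO3 and PDK4, are left out of these sums. The PFKL, PFKFB4 and PDHA1 parts are larger in every siNFE2L3 library and the SLC16A1 and SLC2A3 parts smaller, whereas the LDHA and LDHB parts overlap between the groups.

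To show the DNA before these starts, the 250 bases upstream of the RefSeq start (GRCh38.p14) are printed for PFKFB4 and PFKL, which rose most, and for PDHB and LDHA, which fell most, among the called genes with a match to the HIF core motif.
The starts that RefSeq gives can differ from the outermost ends of the Ensembl genes used for counting.
Capitals mark the core of a HIF response element (ACGTG or GCGTG) and of an antioxidant response element (TGACNNNGC), the class of site bound by cap'n'collar factors, on either strand.
The regions are chr3:48556804-48557053 (minus strand), chr21:44299803-44300052 (plus strand), chr3:58433833-58434082 (minus strand) and chr11:18394313-18394562 (plus strand), each written 5′ to 3′ toward the start.
PFKFB4: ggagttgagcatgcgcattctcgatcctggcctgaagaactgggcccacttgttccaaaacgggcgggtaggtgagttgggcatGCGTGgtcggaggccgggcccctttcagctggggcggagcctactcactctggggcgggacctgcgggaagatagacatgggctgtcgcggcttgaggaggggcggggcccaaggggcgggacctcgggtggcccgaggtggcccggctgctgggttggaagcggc
PFKL: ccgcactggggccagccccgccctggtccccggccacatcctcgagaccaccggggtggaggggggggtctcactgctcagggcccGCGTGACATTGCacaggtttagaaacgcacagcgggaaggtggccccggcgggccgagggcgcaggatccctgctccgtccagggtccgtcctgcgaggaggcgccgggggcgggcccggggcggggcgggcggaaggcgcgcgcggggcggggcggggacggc
PDHB: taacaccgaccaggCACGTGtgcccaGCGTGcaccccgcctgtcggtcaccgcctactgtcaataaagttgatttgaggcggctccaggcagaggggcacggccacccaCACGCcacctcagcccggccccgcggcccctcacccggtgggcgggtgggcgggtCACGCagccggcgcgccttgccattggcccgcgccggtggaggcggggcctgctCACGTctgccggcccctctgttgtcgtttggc
LDHA: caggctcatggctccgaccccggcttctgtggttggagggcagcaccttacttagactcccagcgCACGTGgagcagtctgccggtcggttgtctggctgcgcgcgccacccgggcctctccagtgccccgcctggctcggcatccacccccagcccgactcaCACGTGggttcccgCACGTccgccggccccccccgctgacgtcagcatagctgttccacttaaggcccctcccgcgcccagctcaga

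PFKFB4 held 1 HIF core, starting at -166 from the start, and PFKL held 1 at -164, whose last bases overlap the antioxidant core at -161. PDHB held 6 matches and LDHA held 5, where each CACGTG counts once on each strand. RefSeq windows were matched for 30 of the 34 genes, all but SLC2A3, PFKFB2, SLC16A1 and PDP1. The HIF core was present in 17 of these 30 (56.7%), against 43.2% of 35116 windows of the same length, and the antioxidant core in 5 (16.7%), against 10.9%. By direction, the HIF core was found in 3 of 4 matched genes that were higher, 3 of 9 that were lower and 10 of 16 that passed in neither direction, besides the untested ALDOC. A match describes letters only and does not show that a factor binds there.

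From aldolase to pyruvate, changes were small and ran in both directions. ALDOA, the main aldolase, had 168 ± 2.71 CPM in siNFE2L3 cells and 177 ± 4.77 CPM in siControl cells and did not pass (log2 fold change -0.077, SE 0.039, edgeR adjusted p = 0.16). ALDOC, the brain-type aldolase, was not tested, as it had 7, 12 and 5 reads in siNFE2L3 libraries, against 8, 4 and 12 reads in siControl libraries. TPI1, which interconverts the triose phosphates, had 350.1, 382 and 352 CPM in siNFE2L3 libraries, against 382, 385 and 413 CPM in siControl libraries. siNFE2L3 replicate 2 lay within the siControl range, and although the test called TPI1 lower (log2 fold change -0.12, SE 0.043, edgeR adjusted p = 0.0364), the call was lost in 5 of 15 alternative settings, with an adjusted p of up to 0.182 (without siControl replicate 3). GAPDH, which makes the first NADH of the pathway and is often used as a reference gene, had 1159.7 ± 35.4 CPM in siNFE2L3 cells and 1214 ± 38.6 CPM in siControl cells and did not pass (log2 fold change -0.067, SE 0.038, edgeR adjusted p = 0.219). It shares 422 exon bases with RP5-940J5.9 on the opposite strand, at 308 CPM in siNFE2L3 cells and 318 CPM in siControl cells.

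PGK1, the first ATP-forming step, had 187, 189 and 186 CPM in siNFE2L3 libraries, against 205, 204 and 209 CPM in siControl libraries. All siNFE2L3 libraries were lower, at 90.8% of the control, with a log2 fold change of -0.14 (SE 0.038, edgeR adjusted p = 0.00739). PGAM1, the phosphoglycerate mutase between PGK1 and the enolases, went the other way, with 144, 144 and 145 CPM in siNFE2L3 libraries, against 122, 129 and 131 CPM in siControl libraries. The siNFE2L3 values were almost identical to each other and above every siControl value (log2 fold change 0.18, SE 0.041, edgeR adjusted p = 0.00146). ENO1, the main enolase, had 2556, 2758 and 2779 CPM in siNFE2L3 libraries, against 2787, 2876 and 2994 CPM in siControl libraries, without overlap, but did not pass the test (log2 fold change -0.10, SE 0.040, edgeR adjusted p = 0.0766), which it did in 4 of 15 alternative settings. ENO2, the neuronal enolase that many tumours also express, had 68.2, 70.6 and 66.8 CPM in siNFE2L3 libraries, against 56.3, 55.0 and 53.1 CPM in siControl libraries. It rose to 125% of the control without overlap (log2 fold change 0.32, SE 0.045, edgeR adjusted p = 4.95e-06). The share of ENO2 in the summed RPKM of ENO1 and ENO2 was 2.30% ± 0.117 in siNFE2L3 cells and 1.73% ± 0.110 in siControl cells. That sum leaves out ENO3, which had 28.4 RPKM in siNFE2L3 cells and 31.9 RPKM in siControl cells. PKM, the pyruvate kinase of most adult and tumour cells, had 1754, 1769 and 1714 CPM in siNFE2L3 libraries, against 1843, 1869.6 and 1975 CPM in siControl libraries. Its groups did not overlap and it was called lower (log2 fold change -0.12, SE 0.038, edgeR adjusted p = 0.0198), a call lost in 4 of 15 alternative settings, including without siNFE2L3 replicate 3 (adjusted p = 0.111) and without siControl replicate 3 (adjusted p = 0.112). Gene counts do not separate the PKM splice forms.

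Set on a common scale per exon length, the genes spanned several orders of magnitude. In siNFE2L3 cells ENO1 stood at 682 RPKM, GAPDH at 389, PKM at 204 and SLC2A1 at 146 RPKM, and in siControl cells ENO1 stood at 729, GAPDH at 407, PKM at 221 and SLC2A1 at 146 RPKM. These led the order in both groups. SLC2A1 and TPI1, PFKP and BSG, and PGAM1, PDHB and PDHA1 were neighbours whose siControl libraries overlapped, so their order is not resolved. The same held, lower down, for SLC16A1 and ALDOA, HK2 and MPC1, the run from ENO2 over PFKFB3 and SLC16A3 to SLC2A3, PFKL and MPC2, GPI and DLAT, and PDK3 and PFKFB4. In siControl cells every library of LDHA and LDHB was above PFKP, whereas in siNFE2L3 cells the libraries of PFKP and LDHA overlapped. At the low end were PDK1, at 0.649 RPKM in siNFE2L3 cells and 0.677 RPKM in siControl cells, and ALDOC. Summed over the 17 enzymes from hexokinase to lactate dehydrogenase, the level was 1950.0 ± 46.8 RPKM in siNFE2L3 cells and 2076 ± 66.8 RPKM in siControl cells (SD, n = 3 each), without overlap, or 93.9% of the control. Most of that sum comes from ENO1, GAPDH and PKM, so it follows these few genes. Together the 34 genes took 1.06% of all counts in each siNFE2L3 library and 1.11% to 1.17% in the siControl libraries.

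**Figure D4:**
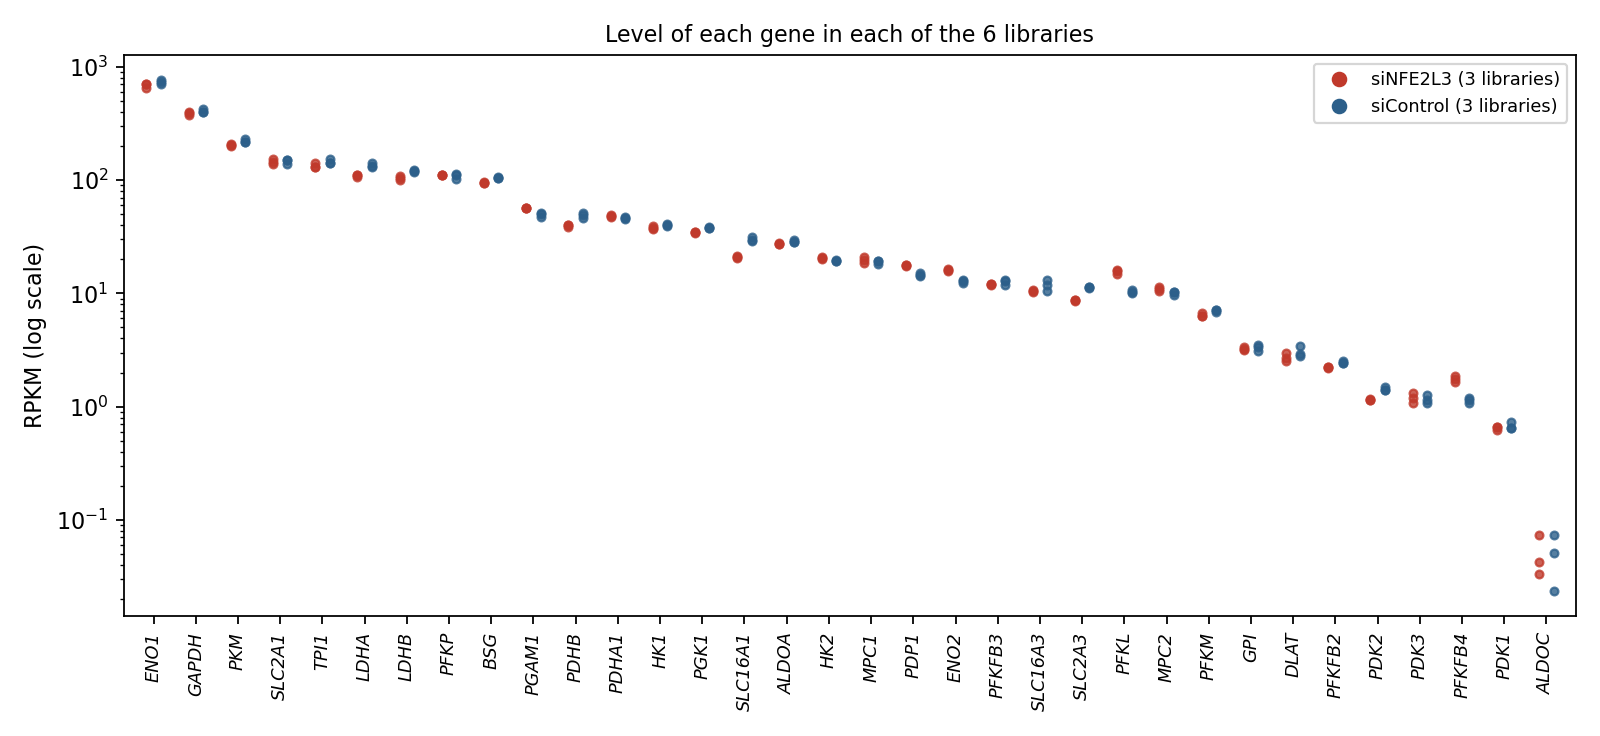
RPKM of each of the 34 genes in each library on a log scale, in order of the siControl mean (3 siNFE2L3 libraries left of 3 siControl libraries for each gene). ENO1, GAPDH and PKM lead, ALDOC lies near 0.05 RPKM, and the differences between groups are small beside the differences between genes.

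A list of 45 further genes of the same steps, mostly tissue-specific paralogues, gave 29 that could be tested, of which 7 were lower and 3 higher at an adjusted p under 0.05, beside the same backgrounds of 14.0% and 12.7%. Besides DLD, PDHX and PDK4, the lower ones included HKDC1, a hexokinase of kidney and liver, at 123 ± 4.23 CPM in siNFE2L3 cells and 136 ± 4.84 CPM in siControl cells (SD, n = 3 each). BPGM, which makes 2,3-bisphosphoglycerate, was also lower (log2 fold change -0.22, SE 0.066, edgeR adjusted p = 0.0145). ENO3, the muscle enolase, was called lower although its groups overlapped (log2 fold change -0.16, SE 0.047, edgeR adjusted p = 0.00998), and it shares 111 exon bases with the more abundant PFN1 on the opposite strand, which was lower too (edgeR adjusted p = 1.7e-05). PCK2, the mitochondrial carboxykinase that feeds phosphoenolpyruvate from oxaloacetate, had 102, 102 and 98.4 CPM in siNFE2L3 libraries, against 78.8, 76.8 and 82.6 CPM in siControl libraries. It rose without overlap to 127% of the control (log2 fold change 0.35, SE 0.043, edgeR adjusted p = 9.45e-07). GAPDHS, the sperm form of GAPDH, was higher at a low level, 1.36 ± 0.167 CPM in siNFE2L3 cells and 0.730 ± 0.183 CPM in siControl cells (log2 fold change 0.90, SE 0.23, edgeR adjusted p = 0.00444), and shares 60.8% of its exon bases with TMEM147-AS1 on the opposite strand.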

How the data were processed

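Per the methods and the submitters' processing notes, the authors used Trimmomatic 0.36 for trimming, merged reads that shared a molecular identifier, and ran STAR 2.5.3a against the genome of Ensembl release 87. Reads over exons were counted with featureCounts (Subread 1.5.1), and edgeR 3.12.1 is also named. The deposited table holds raw counts per gene and library, with exon lengths, on GRCh38. The strand setting and the counting of read pairs are not given in the sources used here, so reads of overlapping genes may be shared. Even numbers made up 67.6% to 69.9% of low counts, so halved counts were tried.

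Counts were fitted in R 4.3.3 with edgeR 4.0.16 (filterByExpr with a minimum count of 10, TMM scaling, quasi-likelihood test of all 6 libraries, no block) and adjusted by Benjamini-Hochberg over 19916 genes. Each standard error is the size of the log2 fold change divided by the square root of F. The smallest two-sided p of an exact permutation test of 3 against 3 libraries is 0.1, so none is given for single genes. CPM and RPKM used TMM library sizes. Named genes are all 34 members, NFE2L3, up to 8 of the other pathway genes at an adjusted p under 0.05 by smallest adjusted p, and copies or overlapping genes beside a member. SLC16A7, LDHC, PDP2, PDPR, SLC2A12 and SLC2A13 were named after their values were seen. KRT8 and the other markers came from a list of tubule, leukocyte, endothelial, fibroblast and hepatocyte genes. Members, lists and tests were chosen with earlier results of these data known. Alternatives were RLE, upper quartile and no scaling, DESeq2 1.42.0, limma-voom (limma 3.58.1), halved counts, no filter, a floor of 10 counts per library, a replicate block and leaving out each library. Promoter windows, read in Python 3.11.15, are from RefSeq GRCh38.p14, and figures were drawn with matplotlib 3.10.9.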

Additional observations from a re-analysis of the deposited data

How the results depend on the processing

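Over 15 alternative settings the number of the 33 genes called lower ran from 8 (without siNFE2L3 replicate 3) to 14, beside 12, and the number called higher was 5 in each. SLC16A1, LDHA, LDHB, SLC2A3, BSG, PDHB, PDK2 and PGK1 kept their fall and PFKL, PFKFB4, ENO2, PGAM1 and PDP1 their rise in all 15. PFKFB2 kept its call in 5, TPI1 in 10, PKM in 11 and SLC16A3 in 13 settings, and PFKM, ENO1, PFKFB3 and DLAT passed in some. The median log2 fold change of the 33 genes ran from -0.092 (without siControl replicate 1) to -0.051 (without siControl replicate 3) when a library was left out. With a replicate block, 9 of the genes were lower and 5 higher, and 2504 of all genes were lower and 2278 higher, beside 2783 and 2537. No pairing by replicate number was seen: deviations of same-numbered libraries correlated at -0.015, -0.048 and -0.020, and none correlated best with its own number. Such correlations cannot show whether libraries of the same number were prepared together. No setting gave a gene of the 34 past a fold of 2. ALDOC was too rare to test, and estimates of rare genes were less precise: the SE was 0.13 for PDK3 and 0.080 to 0.087 for PDK1, PDK2, PFKFB4 and DLAT, beside 0.038 for LDHA.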
